A study of Arabidopsis thaliana with 18 samples.

Results

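The AP2 clade of Arabidopsis thaliana comprises 6 genes that hold back flowering or act in the floral meristem: APETALA2 (AP2, AT4G36920), TARGET OF EAT 1 (TOE1, AT2G28550), TOE2 (AT5G60120), TOE3 (AT5G67180), SCHLAFMUTZE (SMZ, AT3G54990) and SCHNARCHZAPFEN (SNZ, AT2G39250). They were chosen by name, with earlier results of these data known. A peak was counted for a gene when it overlapped the gene or the 3 kb on each side of it. Of the 16105 peaks in 5 lists, 24 met this rule, and these lay at 9 separate sites. The 6 genes were a part of 27444 protein-coding genes on the nuclear chromosomes.

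The lists came from DAP-seq, in which fragments of naked genomic DNA are mixed with protein made in vitro, and the fragments that the tagged protein holds are recovered and sequenced. The protein was FRUITFULL (FUL) with a FLAG tag, combined with SOC1 (FUL-SOC1), with AG and SEP3 (FUL-AG-SEP3), with AG (FUL-AG) or with SEP3 (FUL-SEP3), or used without a partner (FUL alone), and an input library of the same DNA was sequenced beside them. All mixtures received 400 ng of a DNA library from leaves of 2-week-old Col-0 seedlings, each of the 6 conditions had 3 replicates, and the partners carried no tag, so each fragment was recovered through FUL. The replicates were combined before peak calling, so a peak has no spread between replicates and its only test is that against the input. Because the DNA is naked and the protein is not made in the plant, a peak says nothing of the cells or stages in which a gene is bound.

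The proteins of the AP2 clade are transcriptional repressors with AP2 domains that act through TOPLESS corepressors. They delay flowering, among others by repressing FT, and AP2 itself also specifies sepals and petals and limits AG to the inner whorls. Their mRNAs carry a site for the microRNA miR172, which lowers their protein output as the plant ages. FUL is a MADS-domain protein known to repress genes of this clade in the inflorescence meristem, where it promotes the end of flower production. MADS-domain dimers recognise the CArG-box, a 10 bp element of CC, 6 A or T bases, and GG that reads as a CArG-box on both strands.

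The sequences that bear on the results are those under the summits of 6 of the 9 sites, where a peak reached its highest signal. They are given 5′ to 3′ on the plus strand of TAIR10, with capitals for each CArG-box with at most 1 mismatch. The sequence at SNZ is cut to 30 bases because it lies in an untranslated region of the neighbouring gene.
TOE1 first exon, chr2:12227688-12227807: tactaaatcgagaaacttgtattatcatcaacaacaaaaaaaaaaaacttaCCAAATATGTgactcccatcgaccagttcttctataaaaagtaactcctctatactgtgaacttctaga
TOE1 downstream, chr2:12225090-12225209: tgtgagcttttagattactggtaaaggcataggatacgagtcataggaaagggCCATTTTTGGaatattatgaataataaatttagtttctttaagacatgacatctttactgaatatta
TOE3 upstream, chr5:26805573-26805717: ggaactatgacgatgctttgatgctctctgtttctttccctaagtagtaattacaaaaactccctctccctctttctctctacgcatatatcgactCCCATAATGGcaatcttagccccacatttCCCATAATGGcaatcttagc
SMZ distal, chr3:20379095-20379214: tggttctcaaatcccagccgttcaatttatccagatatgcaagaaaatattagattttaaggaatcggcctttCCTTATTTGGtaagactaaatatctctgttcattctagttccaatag
SMZ proximal, chr3:20377544-20377663: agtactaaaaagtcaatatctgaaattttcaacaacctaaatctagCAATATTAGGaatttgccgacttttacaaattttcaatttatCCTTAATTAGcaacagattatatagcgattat
SNZ upstream, chr2:16391939-16391968: tctggcctttCCGTATATGGtaagaccaaa

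All 6 genes had a peak in at least 1 list, where 43.9% of protein-coding genes had one. Which lists held it differed from gene to gene. The FUL-SOC1 list had a peak at 5 of the 6 genes (all but SMZ), where 28.7% of protein-coding genes had one. FUL-AG-SEP3 also had peaks at 5 (all but AP2), against 27.1% of protein-coding genes, and FUL-AG at the same 5, against 18.1%. The lists of FUL-SEP3 and of FUL alone each had peaks at only 2 genes, SMZ and SNZ for FUL-SEP3 (9.22% of protein-coding genes) and TOE1 and SMZ for FUL alone (17.0%). The lists differ in length, with 4831 peaks for FUL-SOC1, 4457 for FUL-AG-SEP3, 2837 for FUL-AG, 1390 for FUL-SEP3 and 2590 for FUL alone, and they do not hold the number of reads behind each, so a gene without a peak is not shown to be unbound. Among the 8464 protein-coding genes within the length range of the clade, the shares were close to these, at 31.6% for FUL-SOC1, 30.0% for FUL-AG-SEP3, 20.4% for FUL-AG, 10.01% for FUL-SEP3 and 18.8% for FUL alone.

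**Figure D1:**
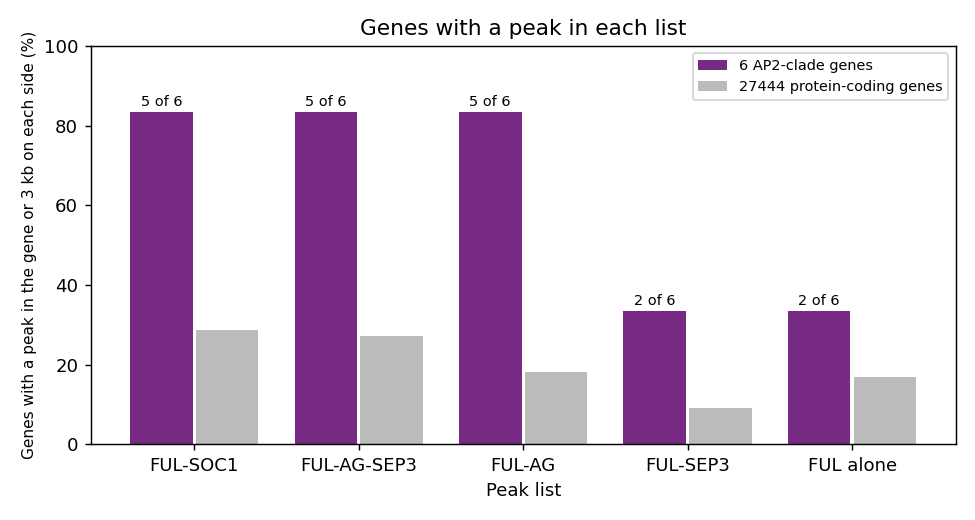
Genes with a peak in the gene or 3 kb on each side, as a percentage (y axis), in each of the 5 peak lists (x axis). Purple bars are the 6 AP2-clade genes, with the count above each bar, and grey bars are all 27444 protein-coding genes. The purple bars stand at 5 of 6 genes for FUL-SOC1, FUL-AG-SEP3 and FUL-AG and at 2 of 6 for FUL-SEP3 and FUL alone, and each is above its grey bar.

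Peaks recurred between the lists at these genes. A peak in 3 or more lists was found at 5 of the 6 genes, against 16.5% of protein-coding genes, and in 4 or more lists at 3 of them (TOE1, SMZ and SNZ), against 9.34%. These counts are by gene and can add up different sites. No single site of TOE1 was in more than 3 lists, while SMZ and SNZ each had a site in 4. None of the 6 had a peak in all 5 lists, which 4.20% of protein-coding genes had. The same DNA library and the same tagged FUL were used in every mixture, so the lists are not independent of each other.

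The lists also differed in how high these peaks were. Fold enrichment, the ratio of the combined reads at a summit to the local background, is not on the same scale in lists of different depth, so each peak was ranked within its own list. In the FUL-SOC1 list the 6 peaks at the clade ranked low, with a median fold of 2.74 against 3.06 for the whole list, and only that at TOE3 was above the list's median. The 8 FUL-AG-SEP3 peaks had a median fold of 3.44 against 3.12, with 5 above the list's median, and the 5 FUL-AG peaks had 4.57 against 3.21, with 3 above. All 3 FUL-SEP3 peaks were below their list's median (3.49 against 3.79), and both peaks of FUL alone were above theirs (6.52 against 3.95). When each list was cut to its 1390 peaks of smallest p, the length of the shortest list, no gene of the clade kept a FUL-SOC1 peak, where 9.31% of protein-coding genes did. Under the same limit 4 genes had a FUL-AG-SEP3 peak (9.38% of protein-coding genes), 3 a FUL-AG peak (9.24%), 2 a FUL-SEP3 peak (9.22%) and 2 a peak of FUL alone (9.46%). With 6 genes, the count of 0 for FUL-SOC1 is close to its share of protein-coding genes. It also depended on the window, because FUL-SOC1 peaks beyond the windows upstream of SMZ and AP2 ranked 294th and 385th by p. The -log10 q of the 24 peaks against the input lay between 1.45, for FUL-SOC1 in the 3′ UTR of TOE1, and 37.6, for FUL-AG at TOE3.

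**Figure D2:**
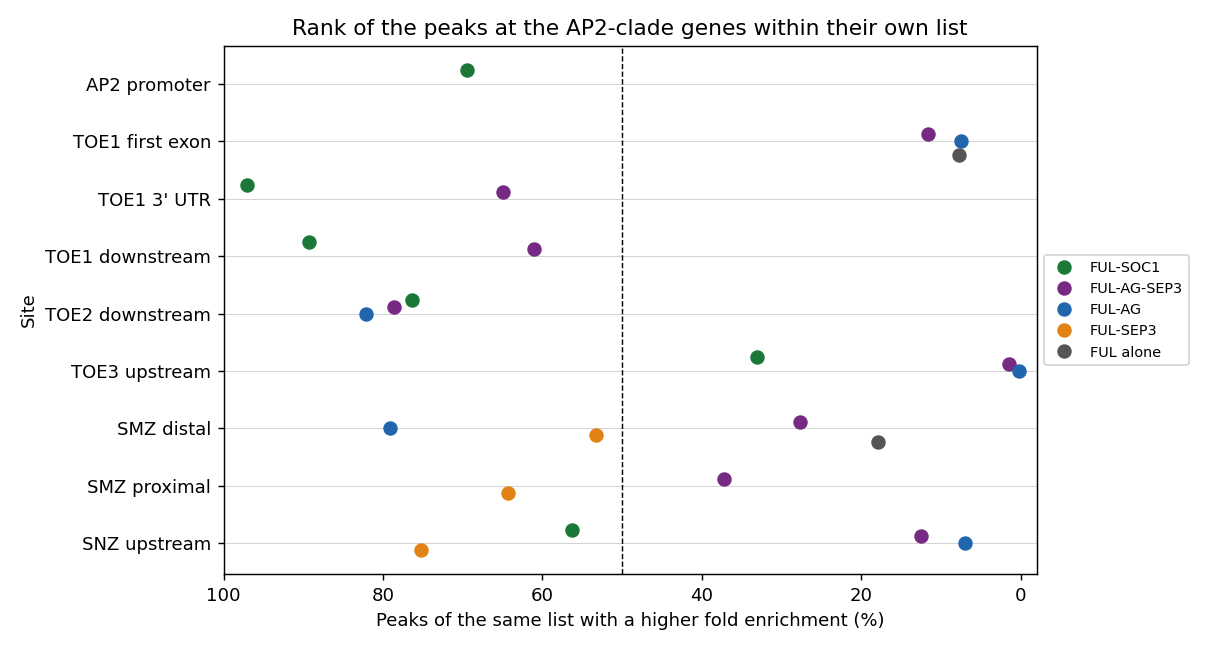
Rank of each of the 24 peaks within its own list, as the percentage of that list's peaks with a higher fold enrichment (x axis, reversed, so that high peaks are on the right), at the 9 sites (y axis). Colours are the 5 lists and the dashed line is the list's median. The TOE3 upstream peaks of FUL-AG-SEP3 and FUL-AG lie at the right edge, with 1.41% and 0.176% of peaks higher, and 5 of the 6 FUL-SOC1 peaks lie left of the line.

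TOE3 carried the highest-ranked peaks of the clade. Its single site lay upstream of the gene (chr5:26801949-26804271, minus strand), with summits 1327 to 1368 bp before the gene start. The FUL-SOC1 peak there had a fold of 3.28, with 33.1% of the list's peaks higher. The FUL-AG-SEP3 peak had 5.55, with 1.41% higher, and the FUL-AG peak 7.30, with 0.176% higher. Ranked by p instead of fold, the FUL-AG peak was the 5th of its list. The FUL-SEP3 and FUL alone lists had nothing near: their closest peaks lay 36178 bp and 36101 bp from the gene. The site was thus held by the mixture with SOC1 and by both mixtures with AG. It falls within exons of a pair of long noncoding RNA genes annotated on opposite strands, AT5G09835 and AT5G09825, whose starts are nearer to it than that of TOE3.

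The TOE3 site also held a repeated box. The box CCCATAATGG, with 1 mismatch, occurred in duplicate, the centres 29 bp apart. Its mismatch is a C within the 6 A or T bases, not in the CC or GG. Both copies belong to an exact direct repeat with a unit of 29 bp, which runs on for 30 matching bases (chr5:26805668-26805726). The unit is shown to make the repeat visible, with the box in capitals.
TOE3 repeat unit, chr5:26805668-26805696: tCCCATAATGGcaatcttagccccacatt
The nearer box lay 40.5 bp from the FUL-AG summit, 34.5 bp from that of FUL-AG-SEP3 and 75.5 bp from that of FUL-SOC1, so the summits were beside the repeat and not on it.

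TOE1 (chr2:12225656-12228624, minus strand, RAP2.7 in RefSeq) had the most sites, with 3. The first lay in the gene, 876 to 882 bp after its start, and had peaks of FUL-AG-SEP3 (fold 4.19, 11.6% of the list higher), FUL-AG (4.57, 7.47% higher) and FUL alone (7.35, 7.68% higher). The 3 summits fell within 6 bp of each other. The box CCAAATATGT, with 1 mismatch, lay under them with its centre 1.5 to 4.5 bp away. It straddles the end of exon 1, with 9 of its 10 bases in the exon, in all 6 annotated transcripts. The base in the intron is the first of the box as printed, which is the last in the direction of the gene. FUL-SOC1 had no peak at this box.

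The other TOE1 sites were those of FUL-SOC1 and FUL-AG-SEP3. In the 3′ UTR the FUL-SOC1 peak had a fold of 2.16, with 97.0% of its list higher, and the FUL-AG-SEP3 peak 2.91, with 64.9% higher. The exact box CCTTATTAGG lay between their summits, which were 136 bp apart. Downstream of the gene the FUL-SOC1 peak had a fold of 2.47 (89.2% higher) and the FUL-AG-SEP3 peak 2.97 (61.1% higher), with summits 12 bp apart beside the exact box CCATTTTTGG. Both sites were thus low in both lists, although their boxes were exact, while the site in the first exon had a box with a mismatch and ranked high. The closest FUL-SEP3 peak was 25744 bp from TOE1.

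SMZ (chr3:20373718-20376522, minus strand) had 2 sites, both upstream, and neither had a FUL-SOC1 peak. The distal site, 2633 to 2743 bp before the gene start, had peaks of FUL-AG-SEP3 (fold 3.55, 27.6% of the list higher), FUL-AG (2.76, 79.2% higher), FUL-SEP3 (3.69, 53.3% higher) and FUL alone (5.70, 17.9% higher). The start of TON1A (AT3G55000), a gene of the tonneau family, is nearer to this site than that of SMZ. The site holds the exact box CCTTATTTGG, whose centre lay 7.5 to 17.5 bp from the summits of FUL-AG-SEP3, FUL-SEP3 and FUL alone and 92.5 bp from that of FUL-AG. The proximal site, 1082 to 1121 bp before the start, was found with FUL-AG-SEP3 (3.34, 37.3% higher) and FUL-SEP3 (3.49, 64.3% higher). Both mixtures hold SEP3, but 84.4% of all nuclear FUL-SEP3 peaks overlapped a FUL-AG-SEP3 peak. The boxes of the proximal site, CAATATTAGG and CCTTAATTAG, each with 1 mismatch, have centres 42 bp apart. The FUL-AG-SEP3 summit lay beside the first of these boxes, 9.5 bp away, and the FUL-SEP3 summit beside the second, 6.5 bp away.

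SNZ (chr2:16388691-16391176, minus strand), a close paralogue of SMZ, had 1 site, with summits 747 to 781 bp before its start. FUL-SOC1 (fold 2.97, 56.2% of the list higher), FUL-AG-SEP3 (4.13, 12.5% higher), FUL-AG (4.62, 6.94% higher) and FUL-SEP3 (3.29, 75.2% higher) had a peak there. It was the only site of the clade found with all 4 partner mixtures, while the closest peak of FUL alone was 29369 bp away. The box CCGTATATGG has 1 mismatch, a G within the 6 A or T bases. This box lies in the 3′ UTR of AT2G39260, the neighbouring gene upstream of SNZ, which encodes the nonsense-mediated decay factor UPF2.

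The distal SMZ site and the SNZ site were alike in the sequence around their boxes. Read in the direction of the genes, a stretch of 28 bases with the box in it was identical at 25 positions. No other place on the nuclear chromosomes matched either stretch at 25 or more bases. The stretches are shown with the shared bases in capitals, on the minus strand.
SMZ distal, chr3:20379161-20379188: ATTTaGTCTTACCAaATAaGGAAAGGCC
SNZ upstream, chr2:16391942-16391969: ATTTgGTCTTACCAtATAcGGAAAGGCC
Of the 3 positions that differ, 2 lie within the box. Among all pairs of the 9 sites the next highest likeness, with a match counted as +1 and a mismatch as -1, scored 15, over a longer stretch of 43 bases with 29 identical, against 22 for this pair. This likeness was looked for after the sequences had been seen. The lists differed between the pair: FUL-SOC1 had a peak at the SNZ copy and not at the SMZ copy, and FUL alone at the SMZ copy and not at the SNZ copy, while the other 3 lists had peaks at both.

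AP2 (chr4:17400610-17403469, plus strand) had the fewest peaks. The FUL-SOC1 list held its only one, which ended 205 bp before the gene. It had a fold of 2.79, a -log10 q of 3.97 and 69.4% of the list's peaks higher. Its best box, TCAAAATTGG with 1 mismatch, lay 78.5 bp from the summit. A stronger site lay just outside the window, 4589 to 4625 bp upstream of AP2. All 5 lists had a peak there, with folds of 3.88 for FUL-SOC1 (10.3% of the list higher), 6.10 for FUL-AG-SEP3 (0.628% higher), 4.78 for FUL-AG (5.57% higher), 5.66 for FUL-SEP3 (7.55% higher) and 8.63 for FUL alone (4.02% higher). The summits fell within 38 bp in an exon of the noncoding RNA gene AT4G09415, near the box ACAAAAATGG with 1 mismatch. At AP2 the width of the window therefore decided between a peak in 1 list and a peak in 5.

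TOE2 (chr5:24207689-24211743, plus strand) had 1 site, downstream of the gene by 1376 to 1388 bp. Its peaks ranked low in each list, with folds of 2.70 for FUL-SOC1 (76.4% of the list higher), 2.70 for FUL-AG-SEP3 (78.6% higher) and 2.71 for FUL-AG (82.1% higher). The summits lay in the 5′ UTR of AT5G60130, a gene of the AP2/B3-like family whose start is nearer than that of TOE2. This was the only site of the 9 without a box of at most 1 mismatch, the best having 2. The closest peaks of FUL-SEP3 and FUL alone were 5958 bp and 5371 bp from TOE2.

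Other peaks just outside the windows were at SMZ, TOE2 and SNZ. At SMZ a site 3783 bp or more upstream had peaks of FUL-SOC1 (fold 4.31, 4.35% of the list higher), FUL-AG-SEP3 (3.34) and FUL-AG (3.45), so the list that held nothing inside the SMZ window had a high peak beyond its edge. The summits of this site were nearer to the start of TON1A, at 972 to 1027 bp, than to that of SMZ. The site beyond TOE2, 3489 bp or more away, was found in the same 3 lists, and that beyond SNZ, 3235 bp away, in FUL-SOC1 only. The summits beyond TOE2 lay in the 5′ UTR of AT5G60140, 7 to 21 bp from the start of that gene. Inside the windows the peak nearest to the edge was that of FUL-AG at the distal SMZ site, 2621 bp from the gene.

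**Figure D3:**
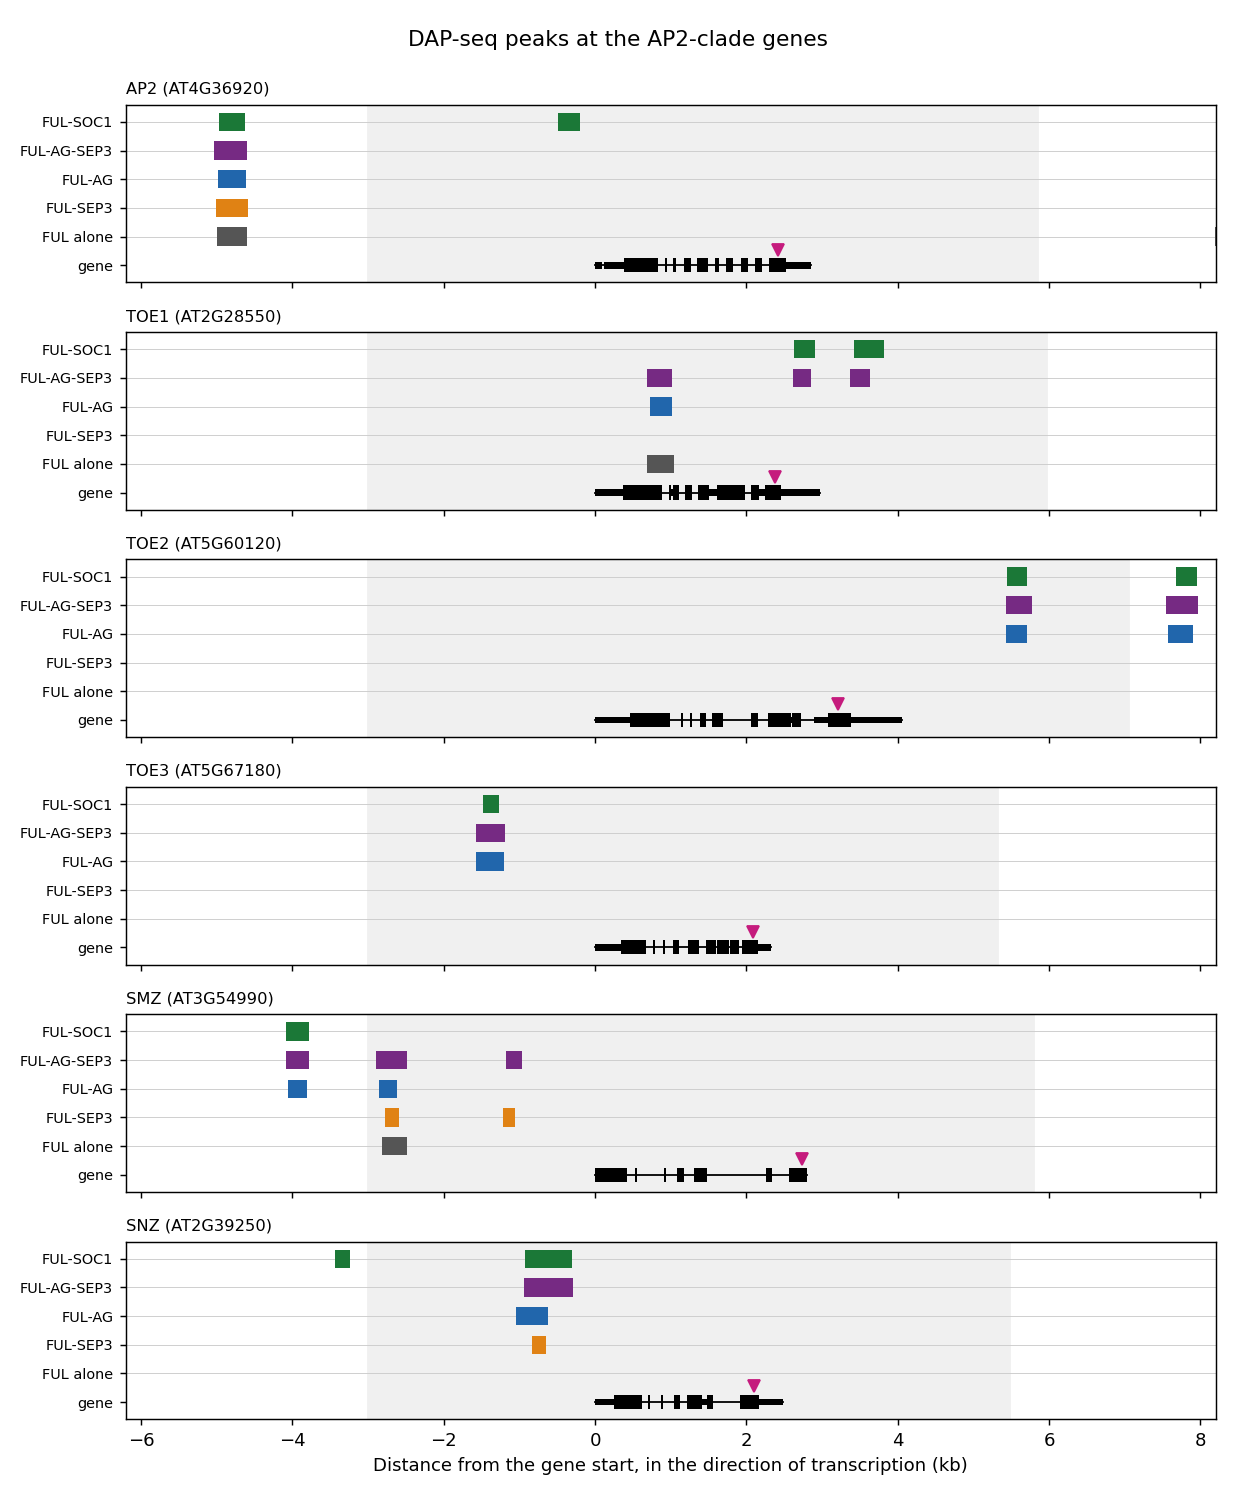
Peaks of the 5 lists (coloured bars, 1 row per list) and gene models (black, coding exons tall, untranslated parts low) at the 6 genes, against the distance from the gene start in the direction of transcription (x axis, kb). Grey shading marks the gene and 3 kb on each side, and triangles mark the miR172 site. The 5 peaks 4589 to 4625 bp upstream of AP2, 1 per list, lie outside the shading. The FUL-SOC1 peak nearer to AP2 lies inside it, and no peak touches a miR172 site.

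By position, 5 of the 9 sites (14 of the 24 peaks) lay upstream of their gene, 2 inside it and 2 downstream. Each window held 3 kb upstream, the gene and 3 kb downstream. The positions of peaks in the windows of other genes were not counted, so these numbers do not show a preference for the upstream side. TOE1 was the only gene of the clade with a peak inside the gene. Of the sites, 8 were found in more than 1 list. The FUL-AG-SEP3 list held 8 of the 9, including every site of FUL-AG, of FUL-SEP3 and of FUL alone, and the only site it lacked was that at the AP2 promoter. For both counts of 8 the share over all sites of the series was not counted, so they have no baseline here. Over all nuclear peaks, 81.0% of those of FUL-AG, 84.4% of those of FUL-SEP3 and 64.1% of those of FUL alone overlapped a FUL-AG-SEP3 peak. FUL-SOC1 held 6 sites, of which 5 were shared with FUL-AG-SEP3 (83.3% of those of FUL-SOC1 and 62.5% of those of FUL-AG-SEP3), and none was shared with FUL alone. Over all nuclear peaks, 47.2% of those of FUL-SOC1 overlapped a FUL-AG-SEP3 peak, 51.2% of those of FUL-AG-SEP3 a FUL-SOC1 peak, and 25.3% of those of FUL-SOC1 a peak of FUL alone. With so few sites, these shares are given as a description. The 2 sites of FUL alone, the first exon of TOE1 and the distal SMZ site, were both also FUL-AG sites, as were 46.4% of all peaks of FUL alone.

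CArG-boxes lay close to the summits at most of these sites. Within 200 bp centred on the summit of smallest p, 3 sites had an exact box, 5 more had a box with 1 mismatch, and TOE2 had none. Counted by peak, 21 of 24 had a box with at most 1 mismatch, made up of 5 of 6 for FUL-SOC1, 7 of 8 for FUL-AG-SEP3, 4 of 5 for FUL-AG, 3 of 3 for FUL-SEP3 and 2 of 2 for FUL alone. Over all nuclear peaks the shares were 69.0%, 68.2%, 71.1%, 77.2% and 74.1% in the same order of lists, and in windows 1 kb to the right of the summits 21.5% to 22.5%. An exact box was under 8 of the 24 peaks, and under 13.6% of all FUL-SOC1 peaks, 14.3% of FUL-AG-SEP3, 15.7% of FUL-AG, 22.3% of FUL-SEP3 and 20.4% of FUL alone. Peaks of different lists at 1 site share their sequence, so these counts rest on 9 stretches of DNA.

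**Figure D4:**
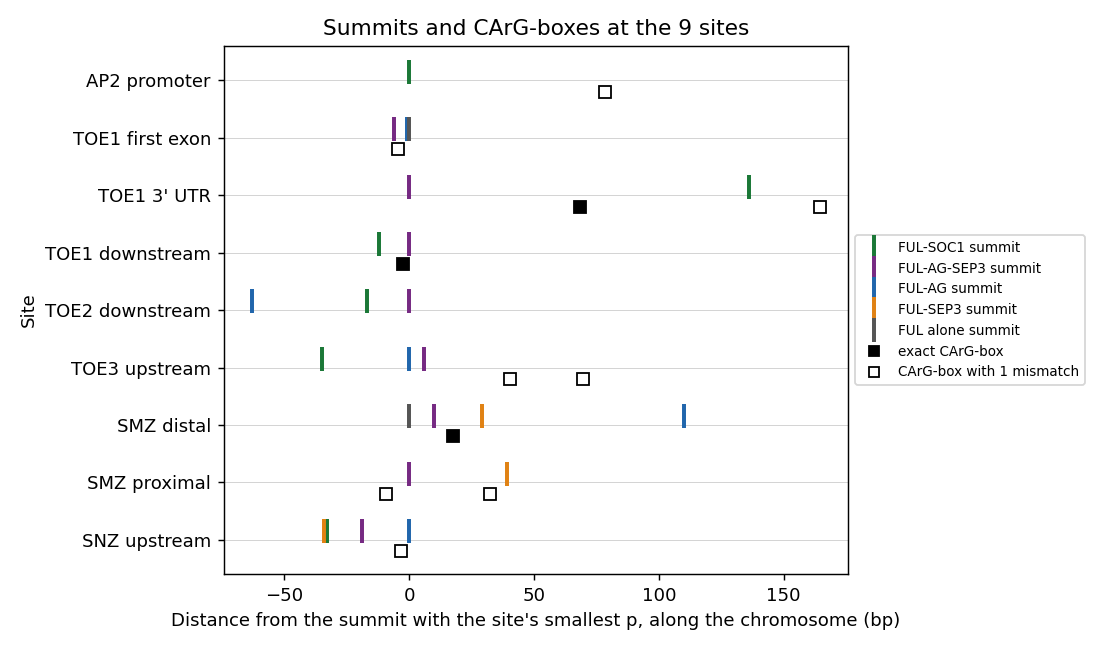
Summits of the 5 lists (coloured ticks) and CArG-boxes (filled squares exact, open squares with 1 mismatch) at the 9 sites, against the distance in bp along the chromosome from the summit with the smallest p at that site (x axis). At the TOE1 first exon, the TOE1 downstream site and the SNZ site a box lies within 5 bp of that summit, while at the AP2 promoter it lies 78.5 bp away and at TOE2 there is no square.

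The miR172 site, which all 6 genes carry, was located to see whether peaks lay near it. The mature microRNA is given with its seed, bases 2 to 8, in capitals, followed by the best match in each gene on the coding strand, with capitals for bases complementary to miR172a. They were read from TAIR10 at the miRNA coordinates of RefSeq and by a search of each gene for the fewest mismatches without gaps.
miR172a: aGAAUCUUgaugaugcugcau
TOE2, chr5:24210889-24210909: ATGCAGCATCATCAgGATTCT
AP2, chr4:17403019-17403039: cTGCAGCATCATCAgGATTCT
TOE1, chr2:12226233-12226253: caGCAGCATCATCAgGATTCT
TOE3, chr5:26802175-26802195: tgGCAGCATCATCAgGATTCT
SMZ, chr3:20373774-20373794: tTGCAGCATCATCAgGATTCc
SNZ, chr2:16389066-16389086: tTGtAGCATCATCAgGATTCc
The matches had 1 mismatch in TOE2, 2 in AP2, 3 each in TOE1, TOE3 and SMZ and 4 in SNZ, and all lay in coding exons. The closest peak to a miR172 site was that in the 3′ UTR of TOE1, 223 bp away, and at the other 5 genes the distance was 2210 to 3692 bp.

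Other genes with AP2 domains, and genes that act with the clade, were counted in the same windows. Among the 11 other genes with a pair of AP2 domains, which include ANT and the PLETHORA genes of meristem growth and the WRINKLED genes of fatty acid synthesis, 6 had a FUL-SOC1 peak (28.7% of protein-coding genes), 6 a FUL-AG-SEP3 peak (27.1%), 3 a FUL-AG peak (18.1%), 4 a FUL-SEP3 peak (9.22%) and 7 a peak of FUL alone (17.0%). AIL5, WRI1 and WRI4 had peaks in all 5 lists, as 4.20% of protein-coding genes did and no gene of the AP2 clade inside its window. At WRI1 the highest folds were 4.40 for FUL-SOC1, 4.81 for FUL-AG-SEP3, 4.55 for FUL-AG, 5.67 for FUL-SEP3 and 8.87 for FUL alone, with 3.29% to 7.90% of the lists higher.

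Of the 5 miR172 genes, MIR172A had peaks in 4 lists. Its highest folds were 3.45 for FUL-SOC1 (25.2% of the list higher), 3.07 for FUL-AG-SEP3 (53.0%), 2.97 for FUL-AG (65.7%) and 2.36 for FUL-SEP3 (98.3%). MIR172C had 1 peak, in FUL-AG-SEP3 (2.86, 68.3% higher), and the other 3 had none. Of the 6 corepressor genes 3 had a peak in at least 1 list, namely TPL, TPR3 and TPR4, and HDA19 had none. The highest FUL-SOC1 peak had 27.2% of the list higher at TPL, 94.1% at TPR3 and 93.2% at TPR4. Of 8 genes known to act downstream of the clade, AG and SOC1 had peaks in all 5 lists and AP1 in 3, while FT, WUS, HB21, HB40 and HB53 had none in any. A peak in at least 1 list was found at 6 of 6 AP2-clade genes, 8 of 11 other genes with 2 AP2 domains, 3 of 6 corepressor genes, 3 of 8 downstream genes and 2 of 5 miR172 genes, against 43.9% of protein-coding genes. The miR172 genes are not protein-coding and are short, so their windows are narrower.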

How the data were processed

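Samples were grouped by their titles, 18 in 6 conditions with 3 replicates. Per the labels and methods, libraries had 20 PCR cycles. Trim Galore was used for trimming and HISAT2 for mapping to TAIR10. MACS2 was then run by the authors on the pooled replicates of each mixture, with the input as control, to give narrow peaks. For every peak the authors deposited the fold enrichment (a ratio to the local background), the -log10 p and the -log10 q of MACS2; all q-values were below 0.05. The deposited score equals 10 times -log10 q rounded down throughout and was left aside. The methods give only an approximate range of reads per sample and the lists none, so the depth of each list was not used here. No spread between replicates could be computed.

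Peaks were matched to RefSeq genes of TAIR10.1, whose 5 nuclear chromosomes have the TAIR10 lengths; mitochondrial peaks were left out of gene and sequence counts. Peaks overlapping by at least 1 bp formed a site. Box mismatches to CC, 6 A or T, GG were counted in 200 bp centred on the summit, with control windows 1 kb to the right. The 6 genes, their windows and the lists of related genes were chosen with earlier results of these data known; all peaks in the windows are named, with the nearest peak outside where a gene has none. No test was run between lists. The functions that count overlaps, sites and boxes were checked on simulated data with known answers, which is not a test of the counts themselves. Alternatives were other windows, stricter p or q, lists of equal length, summits inside the window, other rules for a site and other windows for the box. Python 3.11.15, NumPy 2.4.6, pandas and Matplotlib 3.10.9 were used.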

Additional observations from a re-analysis of the deposited data

How the results depend on the processing

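The number of the 6 genes with a peak depended on the window. With 1 kb on each side it was 3 for FUL-SOC1 (16.3% of protein-coding genes), 3 for FUL-AG-SEP3 (15.8%), 2 for FUL-AG (10.3%), 1 for FUL-SEP3 (5.04%) and 1 for FUL alone (9.70%). Within the gene body alone it was 1, 1, 1, 0 and 1 in the same order (9.29%, 9.07%, 6.06%, 2.56% and 5.55%), and with 5 kb 6, 6, 6, 3 and 3 (39.4%, 37.0%, 25.5%, 13.2% and 24.0%). At a -log10 q of at least 4 the count was 2 for FUL-SOC1 (22.3%) and 3 for FUL-AG (14.9%), and in lists of equal length 0 for FUL-SOC1 (9.31%) and 3 for FUL-AG (9.24%). Both settings left 4 for FUL-AG-SEP3 (22.6% by q, 9.38% at equal length), 2 for FUL-SEP3 (8.06% and 9.22%) and 2 for FUL alone (16.0% and 9.46%). A -log10 p of at least 4, or the summit inside the window, changed no count of genes. Sites found in more than 1 list numbered 8 when an overlap of 50% of both peaks was asked and 7 when summits had to lie within 100 bp. The share over all sites of the series was not counted under either rule. Peaks with a box of at most 1 mismatch numbered 17 of 24 in 100 bp windows, where 53.5% to 67.2% of all nuclear peaks of the lists had one, and 21 of 24 over whole peaks, where 76.0% to 78.5% did. No paired analysis was possible because the replicates were combined before peak calling and the columns carry no replicate, and for the same reason no replicate could be left out. The lists hold no read numbers, so how far depth sets the missing peaks of the shorter lists was not tested.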
